A study of Homo sapiens with 10 samples.

Results

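Cells labelled endoderm, derived from human embryonic stem cells (hESCs) with BMP4 and Activin A, were compared, gene by gene, with the primed hESCs they came from, in bulk mRNA sequencing of the established line H9. Each group was represented by 1 deposited column of FPKM values (fragments per kilobase of transcript, scaled to the size of the library), and the columns were joined by gene symbol. A gene entered the comparison when it reached at least 1 FPKM in either column, which held for 13065 of the 19198 genes in the tables. The change of a gene was the difference of log2(FPKM + 1), BMP4/Activin cells minus primed hESCs, with calls of higher or lower made from 2-fold upward on that scale.

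Genes that define definitive endoderm bore out the label only in part, so these cells are called BMP4/Activin cells here. They are labelled WT with no treatment. According to the methods of the study they were cultured in E8 medium with BMP4 and Activin A, with the WNT agonist CHIR99021 present at the start, and no sorting step is given for them. The primed hESCs, also WT and untreated, were kept in mTeSR medium on Matrigel, so the medium differed between the groups along with the growth factors. Both groups come from 1 line, in which GFP is driven by LTR7, the promoter of the endogenous retrovirus HERVH. The series holds 10 labelled samples in 5 groups of 2, of which 4 samples belong here. Primed hESCs after 12 days in 10 mM crotonate, a short-chain fatty acid, form another column that is set beside the other values at the end.

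Each group had 1 column for its 2 labelled samples, so there was no replicate check, and no SD or p-value could be given for any difference. A call means only that the deposited values passed the 2-fold rule. The steps of single reads could still be seen in low FPKM values. Among 907 genes with less than 0.2 FPKM in each column, 81.5% had a ratio equal to 1 common factor times a ratio of whole numbers up to 12, within 0.05%, against a median of 0.331% for other factors. Whole reads were found on this basis for 90.8% of 16297 genes, and they summed to at least 15564239 reads in BMP4/Activin cells and 14338967 reads in primed hESCs. The reads quoted below are the smallest whole numbers that fit the FPKM values, and their intervals cover counting error alone. In bulk RNA, fewer cells of a type and less RNA per cell cannot be told apart.

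In the embryo, definitive endoderm forms when epiblast cells pass through the primitive streak under strong Nodal signalling, for which Activin A stands in culture. The cells lose POU5F1, NANOG and SOX2 and turn on EOMES, MIXL1 and GSC, then SOX17, FOXA2, GATA4, GATA6 and the chemokine receptor CXCR4. BMP4 favours posterior and lateral fates at the streak, among them lateral plate mesoderm and extraembryonic mesoderm, and in primed hESCs it also induces genes of amnion and trophoblast.

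Of the 13065 genes, 1734 (13.3%) were called higher and 2073 (15.9%) were called lower in BMP4/Activin cells. At 4-fold the counts were 634 higher and 406 lower, and at 16-fold they were 115 higher and 41 lower. The excess of falls at 2-fold did not hold after quantile normalization of the columns, which gave 1876 genes higher and 1852 lower. Genes called higher made up 25.4% of all FPKM in BMP4/Activin cells and 5.36% in primed hESCs, and genes called lower made up 5.67% in BMP4/Activin cells and 17.5% in primed hESCs. Among the genes called higher, 568 reached 1 FPKM in BMP4/Activin cells alone, and among those called lower, 632 reached it in primed hESCs alone. Such genes passed the filter through the group in which they were high. The median difference was -0.02 over all genes of the tables and -0.18 over the 13065. Over all 19198 genes of the tables, 9.03% were called higher and 10.8% lower. The calls in each gene list below, counted over its members in the table, are to be set beside these shares. Just inside the rule, LPIN3 had 5.89 FPKM in BMP4/Activin cells, against 2.44 FPKM in primed hESCs, and just outside it FAM3A had 23.9 FPKM in BMP4/Activin cells, against 11.4 FPKM in primed hESCs.

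**Figure D1:**
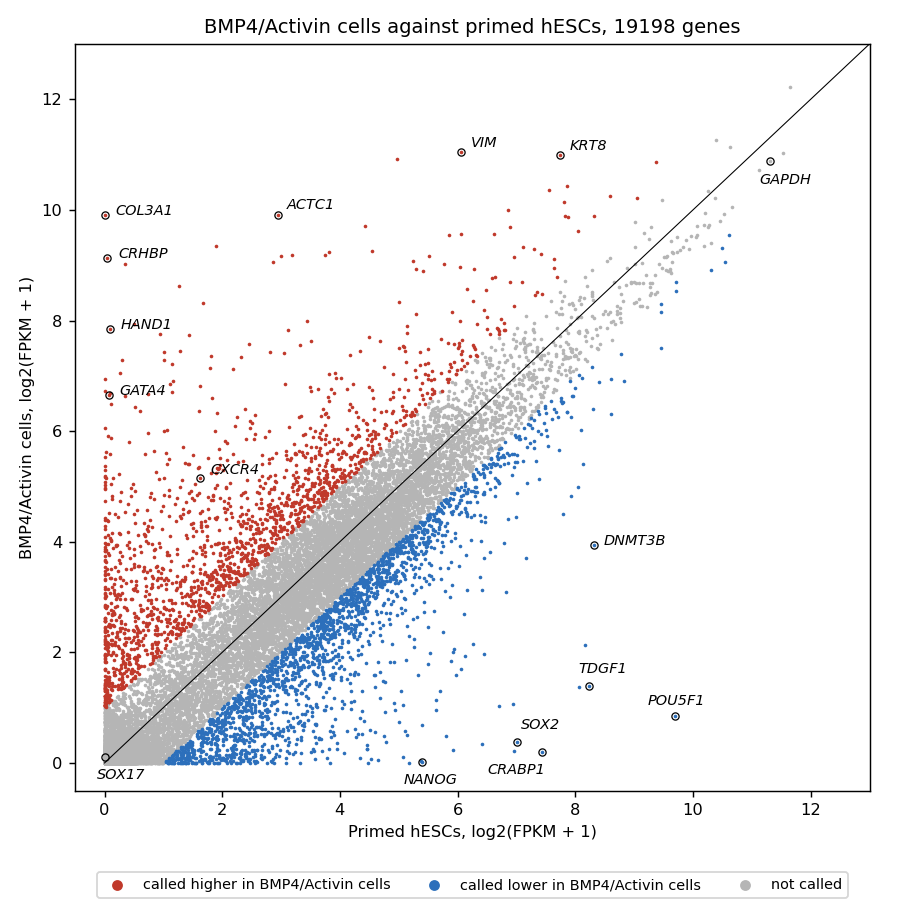
Each point is 1 of 19198 genes, with its level in BMP4/Activin cells on the y axis and in primed hESCs on the x axis, both as log2(FPKM + 1), and the line marks equal levels. Red points were called higher in BMP4/Activin cells (1734 genes) and blue points lower (2073 genes), with COL3A1, CRHBP and HAND1 far above the line and POU5F1, TDGF1 and SOX2 far below it.

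The 12 largest rises were led by COL3A1. COL3A1 (chr2:188974373-189012746, hg38), the chain of type III collagen, had 955 FPKM in BMP4/Activin cells and was listed at 0 in primed hESCs. CRHBP, which binds corticotropin-releasing hormone, had 556 FPKM in BMP4/Activin cells, against 0.0330 FPKM in primed hESCs. These values stand for 36222 reads of CRHBP in BMP4/Activin cells and 2 reads in primed hESCs. IGFBP7, a secreted protein that binds insulin-like growth factors, had 517 FPKM in BMP4/Activin cells, against 0.278 FPKM in primed hESCs. HAND1 (chr5:154474972-154478227, minus strand), a transcription factor of lateral plate and extraembryonic mesoderm, had 229 FPKM in BMP4/Activin cells, against 0.0698 FPKM in primed hESCs, with 14107 reads in BMP4/Activin cells and 4 in primed hESCs. The others were PMP22, a membrane protein of myelin and other cells, ANKRD1, a cardiac ankyrin repeat protein, the actin genes ACTA2 and ACTC1, the homeobox genes MSX1, MSX2 and PITX1, and WLS, which carries WNT proteins to the cell surface. Their levels in BMP4/Activin cells lay between 122 FPKM for PITX1 and 964 FPKM for ACTC1, and none of these 8 genes exceeded the 6.71 FPKM of ACTC1 in primed hESCs.

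POU5F1 led the 12 largest falls, and NANOG, SOX2, ZSCAN10, TDGF1 and L1TD1 are described with the pluripotency genes below. CRABP1, which binds retinoic acid in the cytoplasm, had 0.146 FPKM in BMP4/Activin cells, against 171 FPKM in primed hESCs. SFRP2, a secreted WNT antagonist, had 1.58 FPKM in BMP4/Activin cells, against 267 FPKM in primed hESCs. PTPRZ1, a receptor phosphatase of neural progenitors, had 1.09 FPKM in BMP4/Activin cells, against 122 FPKM in primed hESCs. ZIC2 (a zinc finger factor of primed pluripotency and the neural plate), USP44 (a deubiquitinase) and POLR3G (a subunit of RNA polymerase III abundant in pluripotent cells) completed the group, at 0.266, 0.169 and 1.05 FPKM in BMP4/Activin cells and 84.0, 59.9 and 103 FPKM in primed hESCs.

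The label endoderm was checked first against genes that define definitive endoderm. Of 20 such genes, 7 reached 1 FPKM in BMP4/Activin cells and 7 in primed hESCs, 5 were called higher and 6 lower, and the median difference was 0.02, beside -0.02 over all genes. For comparison, 9.03% of all 19198 genes were called higher and 10.8% lower. The balance of calls in this list cannot test the label. Only the 7 genes at 1 FPKM in primed hESCs could have been called lower, and the list was chosen with earlier results known. The column met its label only in part, since 5 genes rose, but SOX17 and FOXA2, which define the cell type, stayed below 1 FPKM. By RT-qPCR, the study reported raised germ layer markers in its derived endodermal cells, with GATA4, GATA6 and SOX17 as the endoderm markers measured. It also stained such cells for GATA6. In the columns compared here, the 5 genes that rose were GATA4, GATA6, PRDM1, MIXL1 and CXCR4. GATA4 (chr8:11676959-11760002), a zinc finger factor shared by endoderm and cardiac mesoderm, had 99.9 FPKM in BMP4/Activin cells, against 0.0482 FPKM in primed hESCs, which is 11126 reads in BMP4/Activin cells and 5 in primed hESCs. GATA6, its relative with the same dual role, had 3.40 FPKM in BMP4/Activin cells, against 0.0161 FPKM in primed hESCs. CXCR4 (chr2:136114349-136119177, minus strand), the receptor for CXCL12 and a surface marker of definitive endoderm, had 34.7 FPKM in BMP4/Activin cells, against 2.08 FPKM in primed hESCs. MIXL1, a homeobox factor of the primitive streak, had 2.31 FPKM in BMP4/Activin cells, against 0.496 FPKM in primed hESCs, and PRDM1, a repressor found in endoderm and germ cell precursors, had 2.87 FPKM in BMP4/Activin cells, against 0.337 FPKM in primed hESCs.

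The defining factors SOX17 and FOXA2 were at or near 0. SOX17 (chr8:54457935-54460892), the SOX factor that specifies definitive endoderm, had 0.0721 FPKM in BMP4/Activin cells and was listed at 0 in primed hESCs. This level rests on 6 reads, with a 95% interval of 0.0265 to 0.157 FPKM. FOXA2 (chr20:22580998-22585455), the forkhead factor of endoderm and its organs, was listed at 0 in both columns, and FOXA1 had 0.0251 FPKM in BMP4/Activin cells and 0 in primed hESCs. EOMES, the T-box factor upstream of SOX17, had 0.214 FPKM in BMP4/Activin cells, against 0.0460 FPKM in primed hESCs, or 25 reads in BMP4/Activin cells and 5 in primed hESCs. HHEX, a homeobox factor of anterior endoderm, had 0.177 FPKM in BMP4/Activin cells, against 0.276 FPKM in primed hESCs, and LHX1 had 0.420 FPKM in BMP4/Activin cells, against 0.168 FPKM in primed hESCs. GSC, of the anterior streak, was listed at 0 in BMP4/Activin cells and had 3 reads in primed hESCs. None of these genes reached 1 FPKM in either column, while GATA4 and HAND1 had 11126 and 14107 reads in BMP4/Activin cells.

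The 6 definitive endoderm genes that fell were OTX2, FOXA3, KIT, CER1, LEFTY1 and APELA. OTX2, a homeobox factor of anterior tissues and of primed pluripotency, had 0.696 FPKM in BMP4/Activin cells, against 20.1 FPKM in primed hESCs. FOXA3, the third forkhead factor of endoderm, had 2.44 FPKM in BMP4/Activin cells, against 10.5 FPKM in primed hESCs, and KIT, a receptor tyrosine kinase of endoderm and germ cells, had 2.02 FPKM in BMP4/Activin cells, against 11.3 FPKM in primed hESCs. CER1, a secreted antagonist of Nodal, BMP and WNT made by anterior endoderm, had 0.211 FPKM in BMP4/Activin cells, against 1.59 FPKM in primed hESCs, which is 3 reads in BMP4/Activin cells and 21 in primed hESCs. LEFTY1 and APELA, a Nodal inhibitor and a peptide ligand of the apelin receptor, fell to 0.660 and 0 FPKM in BMP4/Activin cells, against 9.48 and 7.43 FPKM in primed hESCs.

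Genes of the gut and liver, which arise from definitive endoderm, were mostly below 1 FPKM. Of 28 members, 4 reached it in BMP4/Activin cells and 3 in primed hESCs, 3 were called higher and 2 lower, and the median difference was 0. These calls are near the 9.03% higher and 10.8% lower over all genes of the tables. CDX2, a factor of the hindgut and also of trophoblast, had 5.13 FPKM in BMP4/Activin cells and was listed at 0 in primed hESCs. SOX9, a factor of cartilage, duct and gut progenitors, had 30.4 FPKM in BMP4/Activin cells, against 2.66 FPKM in primed hESCs, and VTN, the adhesive plasma protein vitronectin, had 13.9 FPKM in BMP4/Activin cells, against 0.109 FPKM in primed hESCs. ONECUT1 and VIL1, a liver and pancreas factor and an actin bundler of gut epithelium, fell, to 0.680 and 0.248 FPKM in BMP4/Activin cells, against 5.37 and 3.67 FPKM in primed hESCs. HNF4A, the central factor of liver and gut, had 0.0150 FPKM in BMP4/Activin cells, against 0.0647 FPKM in primed hESCs, where 1 read is worth 0.0150 FPKM. ALB, TTR, APOA2, FGA and FGB, secreted by liver or visceral endoderm, were all listed at 0 in BMP4/Activin cells.

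Of 18 primitive streak genes, 4 rose and 2 fell, with a median difference of -0.15. EVX1, a homeobox factor of the posterior streak, had 25.8 FPKM in BMP4/Activin cells and was listed at 0 in primed hESCs, and DKK1, a secreted WNT antagonist induced by WNT signalling, had 102 FPKM in BMP4/Activin cells, against 0.0672 FPKM in primed hESCs. WNT3, the ligand that starts the streak in the mouse, had 8.58 FPKM in BMP4/Activin cells, against 2.32 FPKM in primed hESCs. FOXH1, the DNA-binding partner of SMAD2 and SMAD3 in Nodal signalling, fell to 0.517 FPKM in BMP4/Activin cells, against 21.8 FPKM in primed hESCs, and NODAL itself had 0.442 FPKM in BMP4/Activin cells, against 3.57 FPKM in primed hESCs. Brachyury, the gene T, had 0.144 FPKM in BMP4/Activin cells, against 0.129 FPKM in primed hESCs, or 12 reads in BMP4/Activin cells and 10 in primed hESCs, and the paraxial factor TBX6 had 0.799 FPKM in BMP4/Activin cells, against 2.05 FPKM in primed hESCs.

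**Figure D2:**
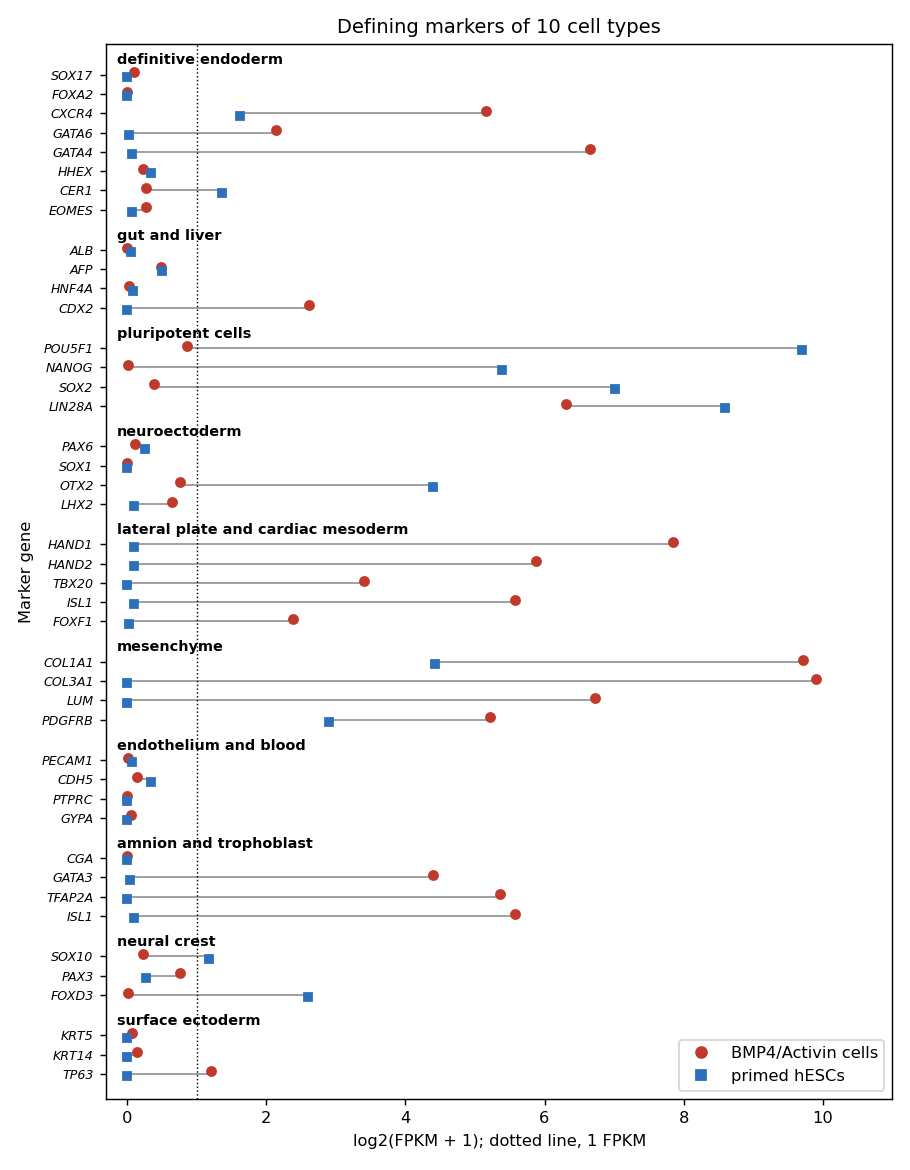
Levels of the defining markers of 10 cell types, 1 row per gene, as log2(FPKM + 1) on the x axis, in BMP4/Activin cells (red circles) and primed hESCs (blue squares), with a dotted line at 1 FPKM. Of the 8 definitive endoderm markers, 3 lie right of the line in BMP4/Activin cells, and so do all 5 markers of lateral plate and cardiac mesoderm and all 4 of mesenchyme.

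Summed over the defining markers of each cell type, the 8 of definitive endoderm reached 139 FPKM in BMP4/Activin cells, of which GATA4 and CXCR4 made up most, and 4.05 FPKM in primed hESCs. The 5 of lateral plate or cardiac mesoderm reached 348 FPKM in BMP4/Activin cells and 0.237 FPKM in primed hESCs, and the 4 of mesenchyme 1931 FPKM in BMP4/Activin cells and 27.0 FPKM in primed hESCs. The 4 of amnion and trophoblast, which share ISL1 with the mesoderm markers, summed to 107 FPKM in BMP4/Activin cells and 0.0967 FPKM in primed hESCs. Markers of endothelium and blood summed to 0.158 FPKM in BMP4/Activin cells and 0.326 FPKM in primed hESCs, with none of 4 at 1 FPKM in either. Whether 1 kind of cell or several carried these markers was not tested.

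The pluripotency genes fell together. Of 29 genes in the table, 14 reached 1 FPKM in BMP4/Activin cells and 26 in primed hESCs, 22 were called lower and 1 higher, and the median difference was -2.56, beside -0.02 over all genes. POU5F1 (chr6:31164337-31180731, minus strand), which encodes OCT4, had 0.809 FPKM in BMP4/Activin cells, against 827 FPKM in primed hESCs, or 54 reads in BMP4/Activin cells and 51351 in primed hESCs. NANOG (chr12:7787794-7799146), its homeobox partner, had 0.0136 FPKM in BMP4/Activin cells, against 41.0 FPKM in primed hESCs, or 1 read in BMP4/Activin cells and 2812 in primed hESCs. SOX2 (chr3:181711925-181714436), the third core factor, had 0.303 FPKM in BMP4/Activin cells, against 128 FPKM in primed hESCs. ZSCAN10 and PRDM14, further transcription factors of the pluripotent network, had 0.158 and 0 FPKM in BMP4/Activin cells, against 123 and 35.3 FPKM in primed hESCs. TDGF1, the Nodal co-receptor, had 1.62 FPKM in BMP4/Activin cells, against 299 FPKM in primed hESCs, and the RNA-binding protein gene L1TD1 had 3.37 FPKM in BMP4/Activin cells, against 286 FPKM in primed hESCs.

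Some members kept substantial levels. LIN28A, which blocks maturation of let-7 microRNAs, was called lower and still had 78.2 FPKM in BMP4/Activin cells, against 387 FPKM in primed hESCs. Its paralogue LIN28B had 20.2 FPKM in BMP4/Activin cells, against 33.7 FPKM in primed hESCs, and SALL4, a zinc finger factor of stem and progenitor cells, had 34.5 FPKM in BMP4/Activin cells, against 57.5 FPKM in primed hESCs, and neither was called. DPPA4 had 27.5 FPKM in BMP4/Activin cells, against 241 FPKM in primed hESCs, and was called lower. DNMT3B, the de novo DNA methyltransferase of primed cells, fell to 14.3 FPKM in BMP4/Activin cells, against 319 FPKM in primed hESCs. The 1 member called higher was LEFTY2, a Nodal inhibitor and Nodal target, which had 37.0 FPKM in BMP4/Activin cells, against 2.51 FPKM in primed hESCs, whereas its neighbour LEFTY1 was among those that fell. Of 5 genes in the table with transcripts started by an LTR7 of HERVH, 3 fell, among them SCGB3A2 at 1.25 FPKM in BMP4/Activin cells and 14.0 FPKM in primed hESCs, and CALB1 at 0.0446 FPKM in BMP4/Activin cells and 10.9 FPKM in primed hESCs.

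Stretches of the promoters of NANOG and SOX2 are shown because both encode core factors that fell with POU5F1 and both stretches hold the octamer core. OCT4 and SOX2 bind octamer and SOX motifs. The sequences are RefSeq's, on GRCh38.p14, each 75 bases long and upstream of the transcription start, and capitals mark matches to the octamer core ATGCAAA and the SOX core CATTGT on either strand.
NANOG: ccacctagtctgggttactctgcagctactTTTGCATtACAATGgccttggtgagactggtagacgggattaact
SOX2: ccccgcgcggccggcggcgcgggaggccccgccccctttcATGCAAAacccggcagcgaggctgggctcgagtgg
The NANOG stretch is chr12:7789252-7789326 on the plus strand, from base -150 to base -76, and holds both cores on the minus strand with 1 base between them. The SOX2 stretch is chr3:181711785-181711859 on the plus strand, from base -140 to base -66, and holds the octamer core. The range of the NANOG gene above is that of all its annotated transcripts, so the stretch lies inside it. Among 35116 RefSeq promoter windows of 300 bases, 4.46% held the octamer core and 10.8% the SOX core. Of the 100 genes called lower that the naming rule selected, 68 had a window, and 8 of these (11.8%) held the octamer core. Of 157 such genes called higher, 115 had a window, and 7 of these (6.09%) held it, so both shares were above that of all windows. Only 1 window was taken per named gene, and the shares were not tested. The SOX core was in 4 of those 68 windows (5.88%) and in 8 of those 115 (6.96%), both below its share of all windows. A match describes the letters of the window and is not a binding site.

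Most genes of the lateral plate and cardiac mesoderm list rose. Of 28 genes, 24 reached 1 FPKM in BMP4/Activin cells and 2 in primed hESCs, 21 were called higher and 0 lower, with a median difference of 2.44. Since nearly all were below 1 FPKM in primed hESCs, they could not have been called lower. HAND2, the partner of HAND1 in heart and limb, had 57.8 FPKM in BMP4/Activin cells, against 0.0769 FPKM in primed hESCs. TBX4 and TBX3, T-box factors of hindlimb, allantois and heart, had 59.0 and 48.4 FPKM in BMP4/Activin cells, against 0.0366 and 0.0192 FPKM in primed hESCs. ISL1, a factor of the second heart field, hindlimb field and amnion, had 46.9 FPKM in BMP4/Activin cells, against 0.0670 FPKM in primed hESCs. PRRX1, of limb mesenchyme, had 14.6 FPKM in BMP4/Activin cells, against 0.0451 FPKM in primed hESCs. NKX2-5, of early heart muscle, had 3.43 FPKM in BMP4/Activin cells and was listed at 0 in primed hESCs, and TBX20, a T-box factor of the heart, had 9.64 FPKM in BMP4/Activin cells and was listed at 0 in primed hESCs. The ligand BMP4, which cells were also given as protein, had 138 FPKM in BMP4/Activin cells, against 3.55 FPKM in primed hESCs.

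Of the lateral plate and cardiac list, 7 genes were not called. TBX5, of forelimb and heart, had 0.0908 FPKM in BMP4/Activin cells, against 0.398 FPKM in primed hESCs, and WT1, of the epicardium and kidney, had 0.142 FPKM in BMP4/Activin cells, against 0.0436 FPKM in primed hESCs, and neither was called. KDR, a receptor for VEGF on mesodermal progenitors, was not called either, with 25.4 FPKM in BMP4/Activin cells and 23.3 FPKM in primed hESCs. Of 14 genes of paraxial and intermediate mesoderm, 3 rose (MEOX1, FOXC1 and FOXC2, at 1.47, 1.24 and 5.52 FPKM in BMP4/Activin cells and no more than 0.0361 FPKM in primed hESCs) and TCF15, a somite factor, fell to 0.713 FPKM in BMP4/Activin cells, against 4.30 FPKM in primed hESCs. The median difference of this list was 0.18. PAX2, PAX3, PAX7 and PAX8, which mark kidney and somite, were all below 1 FPKM in BMP4/Activin cells.

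The HOX genes, which give cells their position along the body axis, were at or near 0 in primed hESCs and widely detected in BMP4/Activin cells. In primed hESCs 37 of 39 were listed at 0 and the highest value was 0.0306 FPKM, and in BMP4/Activin cells 30 reached 1 FPKM. These 30 were the genes called higher, and none could have been called lower. HOXA10 was highest with 38.5 FPKM in BMP4/Activin cells, followed by HOXB6 with 35.3 FPKM and HOXA9 with 35.2 FPKM, and these 3 genes were listed at 0 in primed hESCs. Genes of paralogue groups 1 to 3, expressed most anteriorly in the embryo, had a median of 0.764 FPKM in BMP4/Activin cells, with 3 of 8 at 1 FPKM. Groups 4 to 8 had a median of 3.53 FPKM, with 13 of 15 at 1 FPKM, and groups 9 to 13, the posterior end, had 5.94 FPKM, with 14 of 16 at 1 FPKM. By cluster, HOXA on chromosome 7 summed to 139 FPKM in BMP4/Activin cells, HOXB on chromosome 17 to 155 FPKM, HOXC on chromosome 12 to 30.7 FPKM and HOXD on chromosome 2 to 38.4 FPKM. Within the HOXA cluster, HOXA5 had 4.21 FPKM and HOXA13 31.5 FPKM in BMP4/Activin cells. In the HOXB cluster HOXB1, at the anterior end, was listed at 0 and HOXB13, at the posterior end, had 0.929 FPKM in BMP4/Activin cells, while HOXB2 and HOXB9 between them had 18.5 and 32.8 FPKM. Whether the difference between blocks or clusters exceeds the spread between samples was not tested.

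**Figure D3:**
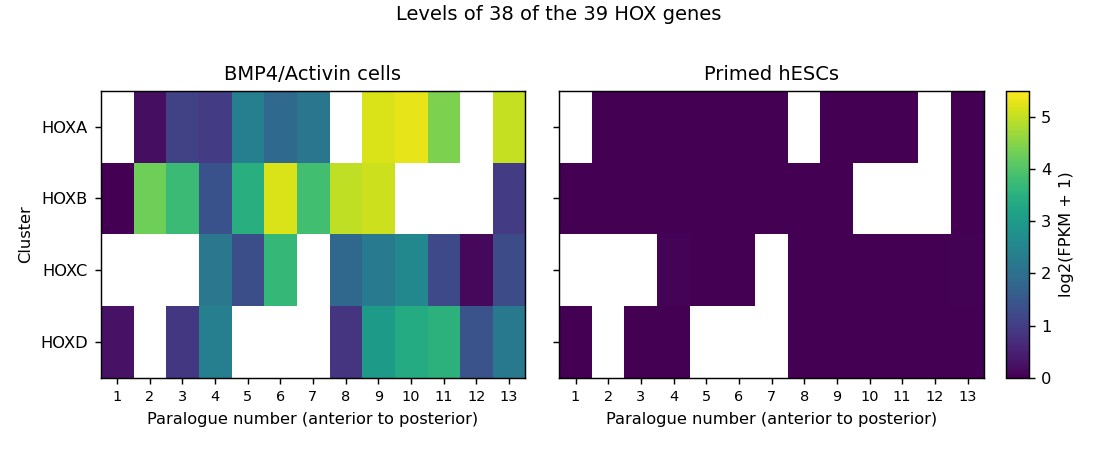
Levels of 38 of the 39 HOX genes by cluster (rows) and paralogue group (columns) as log2(FPKM + 1), BMP4/Activin cells on the left and primed hESCs on the right, with white where a cluster has no gene or none is shown. In BMP4/Activin cells 30 genes reach 1 FPKM, with the highest at 38.5 FPKM (HOXA10), and in primed hESCs no gene exceeds 0.0306 FPKM.

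Most matrix genes rose. Of 42 genes, 35 were called higher and 2 lower, with a median difference of 3.11. Of 12 collagen genes, 11 rose, and their summed FPKM was 5627 in BMP4/Activin cells and 259 in primed hESCs. COL1A1 and COL1A2, the chains of type I collagen, had 836 and 614 FPKM in BMP4/Activin cells, against 20.6 and 22.4 FPKM in primed hESCs. COL4A1, of basement membranes, had 748 FPKM in BMP4/Activin cells, against 56.5 FPKM in primed hESCs. FN1, which encodes fibronectin, had 1937 FPKM in BMP4/Activin cells, against 30.2 FPKM in primed hESCs, and LUM, the collagen-binding proteoglycan lumican, had 105 FPKM in BMP4/Activin cells and was listed at 0 in primed hESCs. HAPLN1, a link protein of hyaluronan, had 98.6 FPKM in BMP4/Activin cells, against 0.266 FPKM in primed hESCs. MMP2, a protease that cleaves basement membrane, had 539 FPKM in BMP4/Activin cells, against 36.7 FPKM in primed hESCs, and TIMP3, an inhibitor of such enzymes, had 118 FPKM in BMP4/Activin cells, against 1.24 FPKM in primed hESCs. The 2 members that fell were COL14A1, a fibril-associated collagen, and THY1, a surface protein that also marks hESCs, with 0.794 and 73.8 FPKM in BMP4/Activin cells, against 5.75 and 193 FPKM in primed hESCs. DCN, the proteoglycan decorin of mature fibroblasts, had 0.0683 FPKM in BMP4/Activin cells and was listed at 0 in primed hESCs.

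Mesenchymal markers rose and most epithelial markers fell. Of 14 mesenchymal genes, 13 were called higher and 0 lower, and of 22 epithelial genes, 4 were called higher and 13 lower. The median differences were 3.91 and -1.42. VIM, the filament protein vimentin, had 2104 FPKM in BMP4/Activin cells, against 66.0 FPKM in primed hESCs. SNAI2 and TWIST1, repressors of epithelial genes, had 63.1 and 27.3 FPKM in BMP4/Activin cells, against 1.01 and 0.0911 FPKM in primed hESCs, and ZEB2 had 15.4 FPKM in BMP4/Activin cells, against 0.0824 FPKM in primed hESCs. CDH2, N-cadherin, had 97.6 FPKM in BMP4/Activin cells, against 29.0 FPKM in primed hESCs. CDH1, E-cadherin, fell and still had 33.8 FPKM in BMP4/Activin cells, against 101 FPKM in primed hESCs, and EPCAM, an adhesion molecule of epithelia and hESCs, had 51.6 FPKM in BMP4/Activin cells, against 144 FPKM in primed hESCs. The splicing regulators ESRP1 and ESRP2 of epithelia fell to 5.73 and 3.13 FPKM in BMP4/Activin cells, against 47.4 and 18.8 FPKM in primed hESCs. The epithelial genes that rose were the keratin genes KRT8, KRT18 and KRT19 and the claudin gene CLDN4. KRT8 had 2024 FPKM in BMP4/Activin cells, against 214 FPKM in primed hESCs, and KRT18, its filament partner, had 1318 FPKM in BMP4/Activin cells, against 186 FPKM in primed hESCs. Reads of KRT8 and KRT18 may be shared with their many pseudogenes, which leaves these levels uncertain. CDH3, SPINT1 and SPINT2, also epithelial, were not called and had 61.5, 80.0 and 134 FPKM in BMP4/Activin cells, against 66.7, 64.1 and 131 FPKM in primed hESCs.

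In the list of cardiac and smooth muscle, 15 of 24 genes rose and 1 fell, with a median difference of 1.43. Of the 19 that encode contractile proteins, 14 rose and 0 fell, with a median difference of 2.11, and of the 5 regulators and calcium-handling genes 1 rose and 1 fell. After quantile normalization of the columns, 0 genes of the list were called lower. ACTC1, the alpha actin of heart muscle, had 964 FPKM in BMP4/Activin cells, against 6.71 FPKM in primed hESCs, and ACTA2, that of smooth muscle, had 393 FPKM in BMP4/Activin cells, against 1.41 FPKM in primed hESCs. CNN1, calponin of smooth muscle, had 108 FPKM in BMP4/Activin cells, against 11.4 FPKM in primed hESCs, and TPM1, tropomyosin, had 1384 FPKM in BMP4/Activin cells, against 232 FPKM in primed hESCs. MYL7 and MYL4, myosin light chains of the atrium and embryonic muscle, had 39.2 and 15.8 FPKM in BMP4/Activin cells, against 2.74 and 0.0688 FPKM in primed hESCs. The heavy chains of differentiated muscle were not among the rises: MYH6, MYH7 and MYH11 had 0.00951, 0.0466 and 0.274 FPKM in BMP4/Activin cells, against 0.0255, 0.0100 and 0.356 FPKM in primed hESCs. TNNT2, cardiac troponin T, had 5.19 FPKM in BMP4/Activin cells, against 4.59 FPKM in primed hESCs.

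Promoter stretches of CRHBP and ACTC1, of the largest rises, and of CXCR4, the endoderm receptor that rose, are shown because each holds the TATA box TATAAA just before its start. They are RefSeq's on GRCh38.p14, written in the direction of transcription, and end 1 base before the start, with the match in capitals. In CXCR4 the capitals span TATAAA and its reverse complement, which overlap.
CRHBP: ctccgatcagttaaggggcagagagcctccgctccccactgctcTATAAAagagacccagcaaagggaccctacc
ACTC1: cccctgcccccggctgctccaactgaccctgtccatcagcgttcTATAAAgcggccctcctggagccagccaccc
CXCR4: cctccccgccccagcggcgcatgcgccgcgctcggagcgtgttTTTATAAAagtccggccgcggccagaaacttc
The CRHBP stretch is chr5:76952970-76953044 on the plus strand, the ACTC1 stretch chr15:34795550-34795624 on the minus strand and the CXCR4 stretch chr2:136118150-136118224 on the minus strand, inside the range of the longest CXCR4 transcripts. TATAAA on either strand was found in 11.5% of the 35116 windows. Of the 115 named genes called higher with a window 17 (14.8%) held it, and of the 68 called lower 9 (13.2%). The GATA motif AGATAA was in 10.3% of all windows, in 10 of those 115 and in 1 of those 68, and the E box CATCTG in 14.7% of all windows, in 10 of the 115 and in 4 of the 68.

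Genes of amnion and trophoblast rose in part. Of 23 genes, 13 reached 1 FPKM in BMP4/Activin cells and 6 in primed hESCs, 11 were called higher and 1 lower, with a median difference of 0.33. TFAP2A, a factor of amnion, surface ectoderm and neural crest, had 40.2 FPKM in BMP4/Activin cells and was listed at 0 in primed hESCs. GATA3 and GATA2, zinc finger factors of trophoblast and amnion, had 20.1 and 11.4 FPKM in BMP4/Activin cells, against 0.0297 and 0.0180 FPKM in primed hESCs. GABRP, a GABA receptor subunit found in amnion, had 20.8 FPKM in BMP4/Activin cells, against 2.78 FPKM in primed hESCs, and VTCN1, an immune checkpoint ligand made by amnion and trophoblast, had 2.99 FPKM in BMP4/Activin cells, against 0.107 FPKM in primed hESCs. IGFBP3 had 148 FPKM in BMP4/Activin cells, against 1.20 FPKM in primed hESCs. Genes of later trophoblast were at or near 0: CGA and PSG1 were listed at 0 in both columns, and ELF5, CYP19A1 and ERVFRD-1 had 0.0250, 0.0632 and 0.0342 FPKM in BMP4/Activin cells. Several members, among them ISL1, CDX2, MSX2 and GATA2, also belong to other lists here.

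Markers of endothelium, blood, neural crest and surface ectoderm were examined as well. Of 24 genes of endothelium and blood, 6 rose and 0 fell, with a median difference of 0.08. In primed hESCs 3 of the 24 reached 1 FPKM, and the others could not have been called lower. RUNX1 and LMO2, factors of blood formation, had 15.2 and 22.7 FPKM in BMP4/Activin cells, against 0.0741 and 0.652 FPKM in primed hESCs, but TAL1, PTPRC and HBG1 were listed at 0 in both columns. The vascular genes that rose were TEK, the angiopoietin receptor, ENG, a TGF-beta co-receptor of endothelium, and the transcription factor genes FLI1 and SOX7, with 26.7, 9.41, 6.82 and 2.63 FPKM in BMP4/Activin cells, against 7.55, 3.26, 0.148 and 0.778 FPKM in primed hESCs. PECAM1 and CDH5, the junction proteins of endothelium, had 0.0127 and 0.102 FPKM in BMP4/Activin cells, against 0.0546 and 0.271 FPKM in primed hESCs. Of 16 neural crest genes, 5 rose (SNAI2, TFAP2A, MSX1, MSX2 and TWIST1) and 3 fell, among them FOXD3 and ERBB3. SOX10, the factor that defines neural crest, had 0.178 FPKM in BMP4/Activin cells, against 1.27 FPKM in primed hESCs. TP63, a factor of basal epithelia and 1 of 7 surface ectoderm genes, had 1.32 FPKM in BMP4/Activin cells and was listed at 0 in primed hESCs, and the basal keratin genes KRT5 and KRT14 had 0.0490 and 0.104 FPKM in BMP4/Activin cells.

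Many neural genes of primed hESCs fell. Of 24 neuroectoderm genes, 4 were called higher and 10 lower, and of 18 genes of synapse and neuronal adhesion 1 was called higher and 7 lower, with median differences of -0.12 and -0.82. SOX3, the neural relative of SOX2, had 0.191 FPKM in BMP4/Activin cells, against 14.4 FPKM in primed hESCs, and POU3F1, of epiblast and neural plate, had 0.0579 FPKM in BMP4/Activin cells, against 19.2 FPKM in primed hESCs. ZIC5, a neighbour of ZIC2, had 0.0369 FPKM in BMP4/Activin cells, against 24.0 FPKM in primed hESCs. NLGN4X, a neuroligin, had 4.54 FPKM in BMP4/Activin cells, against 34.1 FPKM in primed hESCs. PAX6 and SOX1, which define neuroectoderm, were below 1 FPKM in both columns: PAX6 had 0.0782 FPKM in BMP4/Activin cells, against 0.191 FPKM in primed hESCs, and SOX1 was listed at 0 in each. The neural genes that rose, NES, NCAM1, CDH2 and POU3F2, included the filament protein nestin (NES), which mesenchymal cells also make, at 130.1 FPKM in BMP4/Activin cells and 61.6 FPKM in primed hESCs.

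In the Activin, Nodal and TGF-beta pathway, genes were called in both directions. Of 33 genes, 14 were called higher and 8 lower, with a median difference of 0.03. Among ligands, NODAL and its relative GDF3 fell, and TGFB1 had 191 FPKM in BMP4/Activin cells, against 4.51 FPKM in primed hESCs, and TGFB2 had 14.4 FPKM in BMP4/Activin cells, against 0.158 FPKM in primed hESCs. Of receptors, TGFBR3 rose and the Activin receptor ACVR2B fell, and ACVR1B, the type I receptor for Activin, had 7.80 FPKM in BMP4/Activin cells, against 11.8 FPKM in primed hESCs, and was not called. SMAD3, an effector, rose to 23.3 FPKM in BMP4/Activin cells, against 6.20 FPKM in primed hESCs, and SMAD2 had 6.69 FPKM in BMP4/Activin cells, against 6.52 FPKM in primed hESCs. The inhibitors LEFTY2, FST, FSTL3 and SMAD7 rose, with the Activin-binding protein follistatin (FST) at 14.7 FPKM in BMP4/Activin cells and 3.06 FPKM in primed hESCs. All 3 target genes in the list rose, and TGFBI, a matrix protein, had 572 FPKM in BMP4/Activin cells, against 6.97 FPKM in primed hESCs.

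Ligands, inhibitors and targets of the BMP pathway rose. Of 32 genes, 26 were called higher and 1 lower, with a median difference of 2.42. All 10 target genes and all 9 inhibitors were called higher. In primed hESCs 4 of the targets and 4 of the inhibitors reached 1 FPKM, and the others could not have been called lower. ID1, which blocks basic helix-loop-helix factors, had 378 FPKM in BMP4/Activin cells, against 70.2 FPKM in primed hESCs, and MSX2 had 132 FPKM in BMP4/Activin cells, against 0.206 FPKM in primed hESCs. BAMBI, a decoy receptor, had 582 FPKM in BMP4/Activin cells, against 8.15 FPKM in primed hESCs, NOG, which encodes the antagonist noggin, had 17.1 FPKM in BMP4/Activin cells, against 0.321 FPKM in primed hESCs, and SMAD6, the inhibitory SMAD, had 41.0 FPKM in BMP4/Activin cells, against 2.88 FPKM in primed hESCs. Of 6 ligand genes, 5 rose, among them GDF6 with 25.7 FPKM in BMP4/Activin cells and 0.197 FPKM in primed hESCs. Among receptors and effectors, BMPR2 and SMAD9 rose, SMAD5 fell to 8.83 FPKM in BMP4/Activin cells, against 19.3 FPKM in primed hESCs, and SMAD1 had 8.12 FPKM in BMP4/Activin cells, against 7.37 FPKM in primed hESCs. After quantile normalization of the columns, SMAD5 was not called lower.

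WNT genes changed in both directions. Of 54 genes, 18 were called higher and 9 lower, with a median difference of 0.28. The 6 ligands that rose were WNT2, WNT3, WNT5A, WNT5B, WNT6 and WNT11, with WNT5A, a ligand of the noncanonical branch, at 27.5 FPKM in BMP4/Activin cells and 1.14 FPKM in primed hESCs, and none fell. Of 16 ligands, 4 reached 1 FPKM in primed hESCs, and the others could not have been called lower. LEF1, a nuclear effector of beta-catenin, had 36.6 FPKM in BMP4/Activin cells, against 0.183 FPKM in primed hESCs, and its repressive relative TCF7L1 had 30.1 FPKM in BMP4/Activin cells, against 71.5 FPKM in primed hESCs. AXIN2, the common feedback target, had 10.6 FPKM in BMP4/Activin cells, against 5.93 FPKM in primed hESCs, and was not called. Of the 11 nuclear factors and feedback targets, 4 rose and 2 fell. RNF43 and APCDD1, inhibitors of the pathway, rose to 7.33 and 21.5 FPKM in BMP4/Activin cells, against 0.681 and 4.06 FPKM in primed hESCs. NKD1, another inhibitor, rose with a difference of 1.11, to 4.40 FPKM in BMP4/Activin cells, and its relative NKD2 fell to 0.955 FPKM in BMP4/Activin cells, against 6.63 FPKM in primed hESCs. Antagonists split: DKK1, DKK2, DKK3 and NOTUM rose, and SFRP1, SFRP2 and SFRP5 fell, with SFRP1 at 49.6 FPKM in BMP4/Activin cells and 209.6 FPKM in primed hESCs.

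FGF genes fell more often than they rose, with 9 of 25 called lower and 3 higher and a median difference of -0.11. FGF2, which sustains primed hESCs and is a component of their media, had 4.70 FPKM in BMP4/Activin cells, against 19.7 FPKM in primed hESCs, and FGFR4 had 5.60 FPKM in BMP4/Activin cells, against 42.3 FPKM in primed hESCs. FGFR1 had 41.4 FPKM in BMP4/Activin cells, against 109.5 FPKM in primed hESCs. The feedback targets DUSP6 and SPRY4 had 84.2 and 73.6 FPKM in BMP4/Activin cells, against 91.0 and 45.2 FPKM in primed hESCs, and were not called. Of 20 insulin-like growth factor and imprinted genes, 10 rose and 2 fell, with a median difference of 0.83. IGF2, a fetal growth factor expressed from the paternal allele, had 319 FPKM in BMP4/Activin cells, against 2.17 FPKM in primed hESCs, MEST, another paternally expressed gene, had 473 FPKM in BMP4/Activin cells, against 41.4 FPKM in primed hESCs, and IGFBP5 had 155 FPKM in BMP4/Activin cells, against 1.02 FPKM in primed hESCs.

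Genes of glycolysis, a pathway whose enzymes the study examined, fell in part. Of 34 genes, 29 reached 1 FPKM in each column, 4 were called higher and 10 lower, and the median difference was -0.71, beside -0.18 over the 13065 genes. Among transporters, SLC2A1, the glucose carrier GLUT1, had 43.2 FPKM in BMP4/Activin cells, against 161 FPKM in primed hESCs, and SLC16A1, a carrier of lactate, had 33.9 FPKM in BMP4/Activin cells, against 166 FPKM in primed hESCs. HK2, the hexokinase bound to mitochondria, had 2.54 FPKM in BMP4/Activin cells, against 27.9 FPKM in primed hESCs, and HK1 had 64.4 FPKM in BMP4/Activin cells, against 117 FPKM in primed hESCs, and was not called. LDHA, which makes lactate from pyruvate, had 118 FPKM in BMP4/Activin cells, against 339 FPKM in primed hESCs. ENO1, an enolase, had 415 FPKM in BMP4/Activin cells, against 841 FPKM in primed hESCs, a difference of -1.02 that lies at the edge of the rule. GAPDH had 1891 FPKM in BMP4/Activin cells, against 2547 FPKM in primed hESCs, a difference of -0.43, and was not called. The 4 that rose were SLC16A3, PFKP, PFKFB3 and PDK2, of which PFKP, a phosphofructokinase, had 189 FPKM in BMP4/Activin cells, against 60.3 FPKM in primed hESCs. PKM, pyruvate kinase, had 536 FPKM in BMP4/Activin cells, against 371 FPKM in primed hESCs, and was not called.

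**Figure D4:**
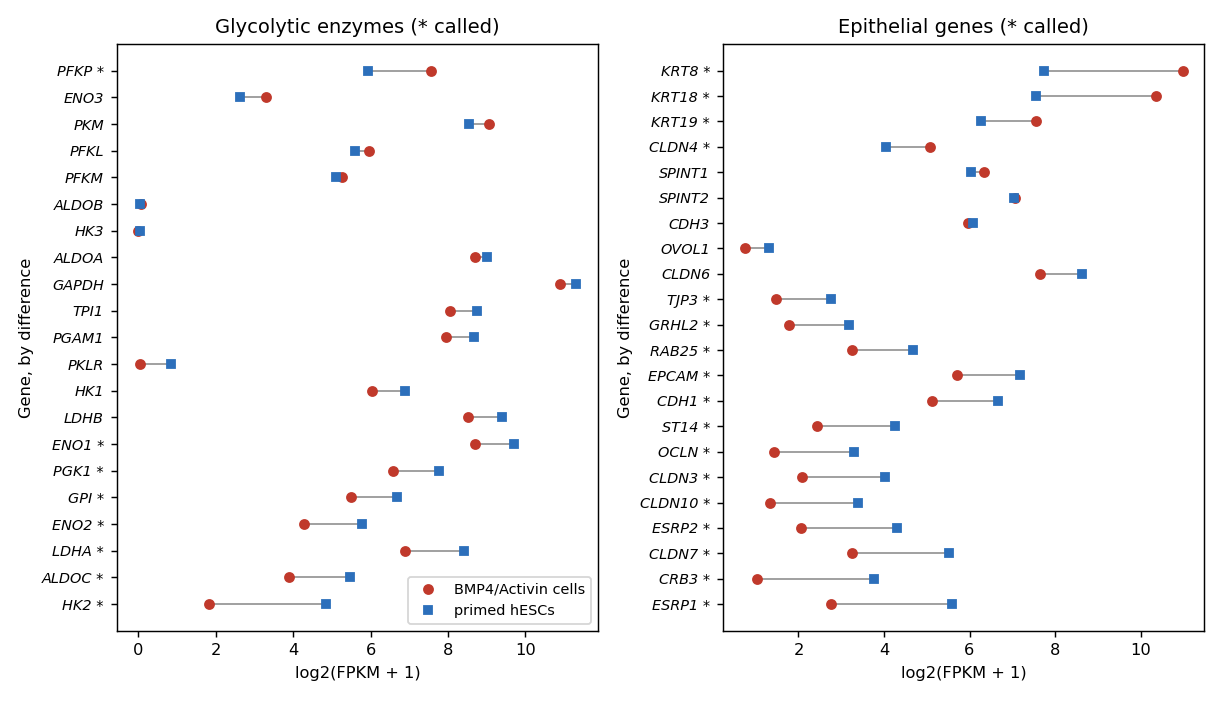
Levels of 21 glycolytic enzymes (left) and 22 epithelial genes (right), 1 row per gene, as log2(FPKM + 1) on the x axis, with red circles for BMP4/Activin cells, blue squares for primed hESCs and an asterisk where the gene was called. Of the enzymes 1 is called higher (PFKP) and 7 lower, and of the epithelial genes 4 are called higher and 13 lower.

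Few genes of the TCA cycle and respiratory chain lists were called. Of 27 genes of pyruvate entry and the TCA cycle, all reached 1 FPKM in both columns, 1 was called higher (IDH2, 136 FPKM in BMP4/Activin cells and 46.3 FPKM in primed hESCs) and 3 lower (ACO1, IDH1 and SUCLG2), with a median difference of -0.18. After quantile normalization 2 were called higher. ACO1 and IDH1 encode the cytoplasmic forms of their enzymes. IDH1, an isocitrate dehydrogenase, had 80.2 FPKM in BMP4/Activin cells, against 231 FPKM in primed hESCs. Of 43 genes of the respiratory chain, 39 reached 1 FPKM in each column, 0 were called in either direction, and the median difference was -0.11. COX5A had the lowest difference among the subunits of complexes III and IV, with 56.3 FPKM in BMP4/Activin cells and 101 FPKM in primed hESCs. In cholesterol synthesis 0 of 18 genes were called higher and 1 lower.

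Of 28 genes that make crotonyl-CoA or write, erase or read histone crotonylation, 4 were called higher and 5 lower, with a median difference of -0.04. All 28 reached 1 FPKM in either column, and these shares stand beside 13.3% and 15.9% over the genes compared. EP300, a writer, had 14.3 FPKM in BMP4/Activin cells, against 23.5 FPKM in primed hESCs, and was not called. ACSS2, which makes acyl-CoA from short-chain acids, had 30.9 FPKM in BMP4/Activin cells, against 15.7 FPKM in primed hESCs. MLLT3, a reader with a YEATS domain, had 16.2 FPKM in BMP4/Activin cells, against 1.84 FPKM in primed hESCs, and SIRT1, a deacylase, had 6.75 FPKM in BMP4/Activin cells, against 20.8 FPKM in primed hESCs. Of 23 genes of DNA methylation and Polycomb, 3 rose and 4 fell, with a median difference of -0.29. Of these 23 genes, 21 reached 1 FPKM in either column. Their calls are near the shares of 13.3% higher and 15.9% lower over the genes compared. JARID2, a Polycomb cofactor abundant in hESCs, had 13.1 FPKM in BMP4/Activin cells, against 92.3 FPKM in primed hESCs, and TET1, which oxidizes methylcytosine, had 3.42 FPKM in BMP4/Activin cells, against 21.5 FPKM in primed hESCs. EZH2, the Polycomb methyltransferase, had 28.7 FPKM in BMP4/Activin cells, against 34.4 FPKM in primed hESCs.

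Cell cycle genes divided by role. Of 14 proliferation markers, 7 were called lower and 0 higher, and of 7 inhibitors 5 were called higher and 0 lower, with median differences of -0.99 and 1.73. MCM4, of the replicative helicase, had 36.0 FPKM in BMP4/Activin cells, against 120.3 FPKM in primed hESCs, and MKI67 had 25.8 FPKM in BMP4/Activin cells, against 57.0 FPKM in primed hESCs. CDKN1A, which encodes p21, had 124 FPKM in BMP4/Activin cells, against 14.2 FPKM in primed hESCs. CDKN2B, which encodes p15, had 34.4 FPKM in BMP4/Activin cells, against 0.0155 FPKM in primed hESCs, or 4779 reads in BMP4/Activin cells and 2 in primed hESCs, and CDKN2A, its neighbour, had 11.7 FPKM in BMP4/Activin cells, against 0.191 FPKM in primed hESCs. CCND1 had 88.8 FPKM in BMP4/Activin cells, against 42.8 FPKM in primed hESCs, and CDK6 had 26.8 FPKM in BMP4/Activin cells, against 2.92 FPKM in primed hESCs, and both were called higher.

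Genes of antigen presentation and interferon response rose in all but 3 of 25, with 22 called higher, 0 lower and a median difference of 1.99. B2M, the light chain of MHC class I, had 485 FPKM in BMP4/Activin cells, against 76.7 FPKM in primed hESCs. TAP1, of the peptide transporter, had 57.3 FPKM in BMP4/Activin cells, against 11.8 FPKM in primed hESCs, and NLRC5, the activator of MHC class I genes, had 3.81 FPKM in BMP4/Activin cells, against 0.266 FPKM in primed hESCs. MX1, an antiviral GTPase, had 163 FPKM in BMP4/Activin cells, against 2.49 FPKM in primed hESCs, and OAS1, a sensor of double-stranded RNA, had 114 FPKM in BMP4/Activin cells, against 1.16 FPKM in primed hESCs. ISG15, a ubiquitin-like protein, had 1028 FPKM in BMP4/Activin cells, against 114 FPKM in primed hESCs. HLA genes and IFITM1, IFITM2 and IFITM3 are near-identical in places, and how their shared reads were counted is not given, so their levels are uncertain.

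Stress genes moved with the groups. Of 27, 12 were called higher and 1 lower, with a median difference of 0.88. Of 8 immediate early genes, which respond to handling as well as to signals, 6 rose, among them JUNB with 55.7 FPKM in BMP4/Activin cells and 3.12 FPKM in primed hESCs, and FOS with 19.8 FPKM in BMP4/Activin cells and 1.31 FPKM in primed hESCs. Their part in the other differences was not tested. Of 14 genes often used as references, 2 rose, among them B2M, and 3 fell (HPRT1, PGK1 and TFRC), near the 13.3% and 15.9% over the genes compared, and 1 rose after quantile normalization. ACTB had 4762 FPKM in BMP4/Activin cells, against 3206 FPKM in primed hESCs, and was not called. Among retinoic acid genes, 5 of 18 rose and 3 fell. ALDH1A2, which makes retinoic acid in mesoderm, had 11.5 FPKM in BMP4/Activin cells and was listed at 0 in primed hESCs, and RARB, a receptor gene induced by it, had 3.56 FPKM in BMP4/Activin cells, against 0.136 FPKM in primed hESCs.

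**Figure D5:**
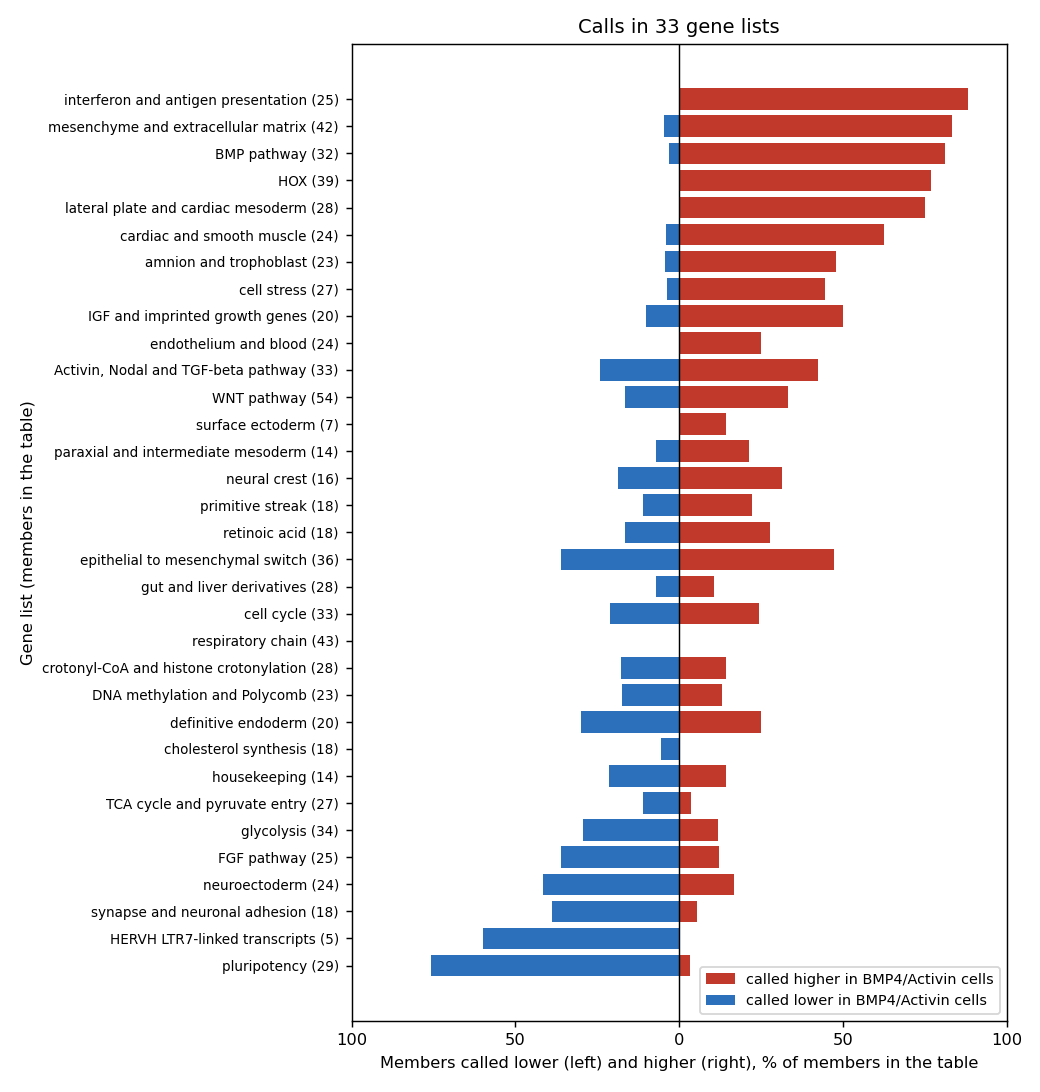
For each of 33 gene lists, the percentage of its members in the table called higher (red, to the right) and called lower (blue, to the left) in BMP4/Activin cells against primed hESCs. Interferon genes (22 of 25), matrix genes (35 of 42), BMP genes (26 of 32), HOX genes (30 of 39) and lateral plate genes (21 of 28) reach farthest right, and pluripotency genes (22 of 29) farthest left, against 9.03% higher and 10.8% lower over all 19198 genes of the tables.

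Crotonate-treated primed hESCs were set beside the BMP4/Activin cells. Both are compared with the same column of primed hESCs, so their changes are not independent, and the levels are given side by side without a test. The share of all genes with the higher level in either column was not counted. The counts of members that follow therefore have no overall share beside them. Of 22 epithelial genes, 21 had the higher level in BMP4/Activin cells and 1 (CLDN10) under crotonate, and for 18 of the 21 the levels were 2-fold or more apart on the log2(FPKM + 1) scale. CDH1 had 33.8 FPKM in BMP4/Activin cells, 2.17 FPKM in hESCs under crotonate and 101 FPKM in primed hESCs, and EPCAM had 51.6 FPKM in BMP4/Activin cells, 8.73 FPKM in hESCs under crotonate and 144 FPKM in primed hESCs. Of 23 genes of amnion and trophoblast, 14 had the higher level in BMP4/Activin cells, 6 had it under crotonate and 3 were equal. TFAP2A had 40.2 FPKM in BMP4/Activin cells and 0.171 FPKM in crotonate-treated hESCs, and GABRP had 20.8 FPKM in BMP4/Activin cells and was listed at 0 in crotonate-treated hESCs. PGF, a placental growth factor of the VEGF family, had 10.3 FPKM in BMP4/Activin cells and 44.6 FPKM in crotonate-treated hESCs, and CDX2 5.13 FPKM in BMP4/Activin cells and 10.4 FPKM in crotonate-treated hESCs. Of 25 genes of interferon and antigen presentation, 23 had the higher level in BMP4/Activin cells and 2 under crotonate, with MX1 at 163 FPKM in BMP4/Activin cells and 5.39 FPKM in crotonate-treated hESCs, and TAP1 at 57.3 FPKM in BMP4/Activin cells and 3.92 FPKM in crotonate-treated hESCs, below the 11.8 FPKM of primed hESCs.

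Of the 20 definitive endoderm genes, 16 had the higher level under crotonate, 7 of them by 2-fold or more with 1 FPKM in either column, and 4 had it in BMP4/Activin cells, 1 of them (PRDM1) by as much. SOX17 had 0.0721 FPKM in BMP4/Activin cells and 3.97 FPKM in crotonate-treated hESCs, which is 6 reads in BMP4/Activin cells and 271 in crotonate-treated hESCs. FOXA2 was listed at 0 in BMP4/Activin cells and had 1.85 FPKM in crotonate-treated hESCs, and GATA6 had 3.40 FPKM in BMP4/Activin cells and 26.4 FPKM in crotonate-treated hESCs. EOMES, HHEX and LHX1 had 0.214, 0.177 and 0.420 FPKM in BMP4/Activin cells, against 1.11, 1.45 and 3.45 FPKM in crotonate-treated hESCs. PRDM1 had 2.87 FPKM in BMP4/Activin cells and 0.513 FPKM in crotonate-treated hESCs, and MIXL1 2.31 FPKM in BMP4/Activin cells and 2.22 FPKM in crotonate-treated hESCs. The 5 lateral plate and cardiac markers summed to 348 FPKM in BMP4/Activin cells and 608 FPKM in crotonate-treated hESCs, and the 4 amnion and trophoblast markers to 107 FPKM in BMP4/Activin cells and 32.3 FPKM in crotonate-treated hESCs. IGF2 had 319 FPKM in BMP4/Activin cells and 1177 FPKM in crotonate-treated hESCs, and IGFBP7 had 517 FPKM in BMP4/Activin cells and 32.1 FPKM in crotonate-treated hESCs.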

How the data were processed

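The authors extracted RNA, enriched mRNA with oligo(dT), sequenced paired-end reads and deposited FPKM values for 1 column per group. The labels give TRIzol for the extraction and the methods RNeasy. The submitters' processing notes name TopHat 1.3.2, Cufflinks 1.1.0, HTSeq 0.6.0 and StringTie 1.3.0, used for mapping to hg38 and for counting, and per the methods the authors applied TMM normalization in edgeR before converting to FPKM. How the 2 samples of a group became 1 column, and whether the separate tables were normalized together, are steps not stated in the sources used here. No further value columns were present.

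From 19225 rows, 27 symbols turned into dates by spreadsheet software were removed. The 2 columns were joined by symbol, log2(FPKM + 1) differences were taken, which understate the change of low genes, and a call needed a 2-fold difference and 1 FPKM in either column. The calling rule and the search for read steps were tested on simulated data. Some genes of the lists are counted in them and not reported here by name. No test across samples was possible with 1 column per group. The members and the 33 gene lists were chosen with earlier results of these data known. Named genes are the study's RNA markers and enzymes, the 12 largest rises and falls, all definitive endoderm genes, and from each list up to 5 called members each way, plus all members called in a direction that at most 5 of their role group share. Members named as not called, or near 0, other genes named beside them and the promoter stretches were chosen after their values were seen. Coordinates are from GENCODE 44 on hg38. RefSeq promoter windows of 300 bases, 250 of them before the start, were found for 192 of 271 named genes. Alternatives were quantile normalization, a pseudocount of 0.1, no filter, a filter at 5 FPKM, equal column sums, summed rows of 1 symbol, and a ratio of FPKM over 1.5. Computations ran in Python 3.11.15 (pandas 2.3.3, numpy 2.4.6, scipy 1.17.1) with plots by matplotlib 3.10.9.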

Additional observations from a re-analysis of the deposited data

How the results depend on the processing

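The columns come from separate tables, so the calls were repeated after quantile normalization, which gave 1876 genes higher and 1852 lower in BMP4/Activin cells, against 1734 and 2073 as reported. Of the reported calls, 1726 higher and 1837 lower were also called there, and the median difference over all genes was then 0.00. A pseudocount of 0.1 gave 2019 higher and 2687 lower, a filter at 5 FPKM 1385 higher and 1549 lower, and equal column sums 1712 higher and 2116 lower. Leaving out the filter and summing rows of 1 symbol gave the reported counts, as they had to. A 2-fold difference on the log2(FPKM + 1) scale already needs 1 FPKM in the higher column, and no symbol was repeated. A ratio of FPKM over 1.5 gave 3047 higher and 4490 lower. Of 271 named genes, 265 kept their call after quantile normalization, 271 with the pseudocount of 0.1, 229 with the filter at 5 FPKM and 270 with equal sums, and none changed direction. A smaller pseudocount can only enlarge a difference, so no call could be lost there, and a stricter filter can only remove calls. Neither setting could change a direction. With the filter at 5 FPKM, 15 HOX genes were called higher, against 30 as reported, and 2 definitive endoderm genes (GATA4 and CXCR4), against 5. The list counts and medians gave 99 results. A result was taken as moved when a count changed more than 1.5-fold or a median by 0.1 or more. With the pseudocount of 0.1, 22 of the 99 moved, with the filter at 5 FPKM 13, and after quantile normalization 7. Medians were taken over all members whatever the filter, so at 5 FPKM only the counts could move. At that filter 4 Activin, Nodal and TGF-beta genes were called lower, against 8 as reported. No paired analysis was possible because each group had 1 column, and for the same reason no replicate could be left out. For genes with 3 reads or fewer in both columns, a difference between the groups was not detectable at this depth.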

Other observations

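Gene families were also counted by symbol, a choice made after values were seen. Counts of integrin, protocadherin and annexin genes are over all members in the table. On that base, 9.03% of all 19198 genes were called higher and 10.8% lower. All 5 DLX genes that reached 1 FPKM were called higher, of 6 in the table. None of the DLX genes reached 1 FPKM in primed hESCs, so none could have been called lower. DLX5, a homeobox factor of branchial arch and limb, was at 65.4 FPKM in BMP4/Activin cells and at 0 in primed hESCs, and DLX2 had 32.0 FPKM in BMP4/Activin cells, against 0.0790 FPKM in primed hESCs. Of 30 integrin genes, 9 were called higher and 1 lower. ITGAV, a receptor chain for vitronectin and fibronectin, had 131.5 FPKM in BMP4/Activin cells, against 14.2 FPKM in primed hESCs, and ITGA6, a laminin receptor chain abundant in hESCs, was the 1 that fell, with 13.1 FPKM in BMP4/Activin cells and 37.8 FPKM in primed hESCs. Of 66 protocadherin genes, 13 were called higher and 2 lower, and of 14 annexin genes 5 were higher and 0 lower, with ANXA1 at 174 FPKM in BMP4/Activin cells and 1.44 FPKM in primed hESCs. Clustered protocadherin genes share 3′ exons, so their split of reads is uncertain.

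In some large families lower calls were near their share of 15.9% over the 13065 genes. Of 52 genes of eukaryotic translation initiation factors at 1 FPKM in either column, 9 were called lower and 0 higher, and of 423 ZNF genes at that level 75 were called lower and 17 higher, where 13.3% of the 13065 were called higher. The 86 ribosomal protein genes had a median difference of -0.52, beside -0.02 over all genes and -0.18 over the 13065. Of these, 81 reached 1 FPKM, with 3 called lower and 0 higher, and they made up 8.67% of all FPKM in BMP4/Activin cells and 12.4% in primed hESCs. Of 51 DEAD and DEAH helicase genes at 1 FPKM, 9 were called lower, among them DDX21, of ribosome synthesis, with 28.7 FPKM in BMP4/Activin cells and 127.8 FPKM in primed hESCs. The 3 helicase genes called higher were DDX58, DDX60 and DDX60L, which are known as interferon-inducible. DDX58, which encodes the RNA sensor RIG-I, had 52.9 FPKM in BMP4/Activin cells, against 9.69 FPKM in primed hESCs. These calls have no replicate check.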
